A study of Mus musculus with 15 samples.

Results

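The adrenergic receptors and the cyclic AMP pathway behind them were followed through 9 genes in cultured mouse white adipocytes kept at 37°C or moved to 31°C. The genes were chosen by name and are Adrb1, Adrb3 and Adra2a among the receptors, the stimulatory G protein gene Gnas, the phosphodiesterases Pde3b and Pde4d, the protein kinase A (PKA) subunits Prkar2b and Prkaca, and the transcription factor Creb1. All 9 were found among the 18804 genes counted, and all 9 were among the 14293 genes with enough reads to be tested. RNA was sequenced from 15 libraries in 3 groups of 5, from adipocytes differentiated in culture from mesenchymal stem cells of C57BL/6J mice, which the study's methods describe as taken from ears. Cells of the day 0 group stayed at 37°C throughout, those of day 1 went to 31°C on day 15 of differentiation and those of day 12 on day 4, and all were harvested on day 16. Day 12 therefore differed from day 0 in the temperature of most of differentiation and not only in the length of exposure. All groups had the same induction, with methylisobutylxanthine (itself an inhibitor of phosphodiesterases), dexamethasone, insulin and a thiazolidinedione, and from day 4 serum alone. The labels name troglitazone, and the study's methods name troglitazone in one section and rosiglitazone in another. Whether replicate libraries stand for separate mice or separate dishes is not stated in the labels, so p-values measure only the spread between these libraries.

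Noradrenaline from sympathetic nerves acts on fat cells through beta receptors, which couple to the stimulatory G protein and switch on adenylyl cyclase, and through alpha-2 receptors, which couple to inhibitory G proteins and switch it off. Cyclic AMP binds the regulatory subunits of PKA and frees its catalytic subunits, which drive lipolysis in adipocytes and phosphorylate CREB, and phosphodiesterases end the signal by breaking cyclic AMP down. Insulin restrains lipolysis in part by activating the phosphodiesterase encoded by Pde3b, and Adrb3 is the beta receptor that marks rodent fat cells.

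Reads assigned to genes totaled 64648178 to 133270973 per library. The cool-inducible RNA-binding protein genes Cirbp and Rbm3 followed the labels: mean Cirbp was 27.4, 164 and 103 CPM (a gene's reads per 1000000 of the scaled library total) at days 0, 1 and 12, and mean Rbm3 was 46.6, 181 and 314 CPM. A gene was called when edgeR's quasi-likelihood test gave a Benjamini-Hochberg adjusted p under 0.05 and the fold change exceeded 1.5. Scaling changed the balance of calls over all genes. Day 12 against day 0 gave 1852 higher and 2320 lower genes with the main scaling (trimmed mean of M values, TMM) but 2982 and 1668 with total counts, which moved the median log2 fold change of all genes from 0.012 to 0.21. Day 12 against day 1 gave 1510 higher and 1219 lower with TMM, 2248 and 843 with total counts (median 0.18), and 2154 and 880 with reference genes (median 0.16). Day 1 against day 0 gave 1102 and 1918 with TMM and 773 and 2423 with reference genes (median -0.11). The adipocyte markers were present, with a summed level of 2236 to 2528 CPM at day 0, 2836 to 3030 at day 1 and 2360 to 2567 at day 12, but they moved in different directions. At day 12 Adipoq (log2 fold change -1.24), Cidec (-1.59), Lep (-0.69) and Pparg (-0.59) were called lower and 2 of the 7 markers, Fabp4 among them (0.97), were called higher. At day 1, 2 of the 7 were called higher and 2 lower. Cidec had a log2 fold change of -2.62 there, from 177 CPM at day 0 to 28.8 at day 1. Chondrocyte markers, which do not define fat cells, summed to 3671 to 4403 CPM at day 0, 3905 to 4062 at day 1 and 1128 to 1222 at day 12, with 3 of 4 called lower at day 12. Stromal and progenitor markers went in summed level from 9927 to 10404 CPM at day 0 to 6712 to 7068 at day 12. Most of that sum was Col3a1, the only marker of 6 tested that was called (log2 fold change -0.79), and Col1a1 (-0.42), while Pdgfra (0.34) and Pdgfrb (0.49) lay above 0. Macrophage markers (7.40 to 14.0 CPM over all libraries), endothelial markers (0.282 to 1.47 CPM) and skeletal muscle markers (0.0114 to 0.413 CPM) were low throughout. Mesothelial markers went from 9.90 to 11.4 CPM at day 0 to 29.7 to 43.9 at day 12 in summed level. That difference came from Msln (0.628 to 29.3 CPM), the only marker of 4 tested that was called, while Krt8 went from 8.44 to 5.71 CPM and Wt1 was at 3 reads or fewer in every library. Schwann cell markers stood between 58.4 and 78.5 CPM. Of the markers tested, 2 of 4 macrophage, 2 of 3 endothelial and 2 of 3 Schwann cell markers were called higher at day 12. The endothelial sum went from 0.524 to 0.689 CPM at day 0 to 0.921 to 1.47 at day 12. In such bulk samples fewer cells of a type and less RNA per cell cannot be told apart, and the part of these shifts in the results that follow was not tested.

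Of the 9 genes, 2 were called in each comparison, all of them lower. Adrb3 and Creb1 were lower at day 1 against day 0, where 13.4% of all genes tested were called lower and 7.71% higher. Adrb3 and Adrb1 were lower at day 12 against day 0, where 16.2% of all genes were called lower and 13.0% higher. Adrb3 and Adra2a were lower at day 12 against day 1, where 8.53% were called lower and 10.6% higher. The 5 libraries of each group did not overlap for 5 of the 9 genes in each comparison. The background for that measure was 57.4% of all genes at day 1 against day 0, 64.6% at day 12 against day 0 and 52.5% at day 12 against day 1, so the 9 genes as a set stood near the background and what follows rests on the single genes. The median log2 fold change of the 9 was -0.053 at day 1 and -0.32 at day 12 against day 0, beside -0.0088 and 0.012 for all genes tested.

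**Figure D1:**
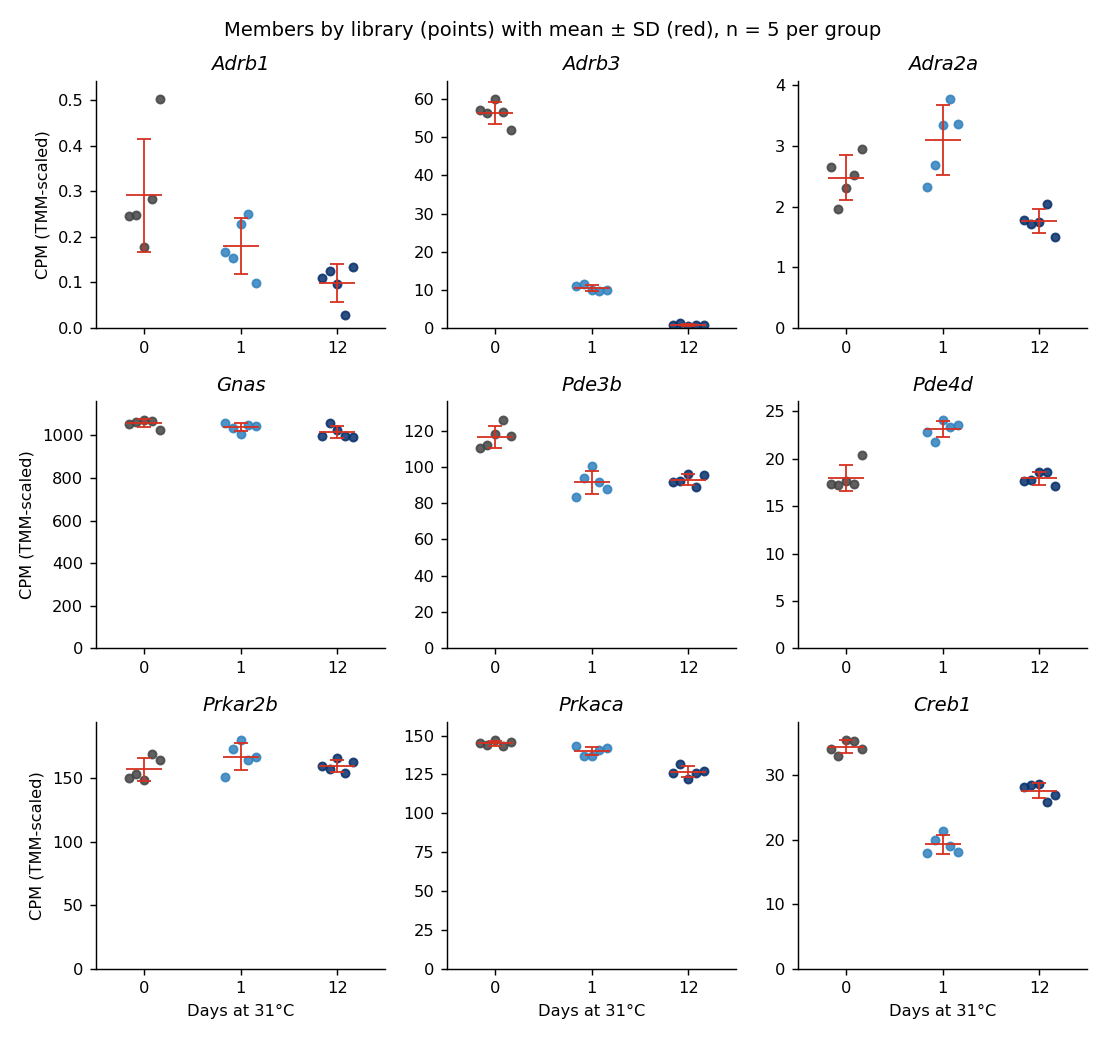
Level of each of the 9 genes in every library, in TMM-scaled CPM, against days at 31°C, each panel with its own axis from 0; points are libraries and red bars the mean ± SD of 5. Adrb3 stepped down from 51.9 to 60.0 CPM at day 0 to at most 1.20 CPM at day 12, and Creb1 was lowest at day 1.

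Per kilobase of exon, Adrb3 dropped through the order of the 9 genes, and among the others Creb1 and Pde4d traded places at day 1. At day 0 the order ran from Gnas (102 CPM per kilobase) through Prkaca (58.3), Prkar2b (43.0), Adrb3 (19.5), Pde3b (17.7), Creb1 (3.91), Pde4d (2.70) and Adra2a (0.513) to Adrb1 (0.0987). The libraries of Adrb3 (17.9 to 20.7) and Pde3b (16.8 to 19.1) overlapped at day 0, and no other pair of neighbors in that order did. At day 1 Adrb3 stood at 3.59 CPM per kilobase, a level whose libraries overlapped those of Pde4d (3.48). At day 12 it was next to last at 0.283 ± 0.0887 (SD, n = 5), overlapping Adra2a at 0.364 ± 0.0409. Gnas carries several alternative first exons, so its exon length is long and its level per kilobase is understated.

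Adrb3, the beta-3 receptor, showed the largest change of the 9 genes in each comparison. Its 5 libraries read 57.1, 56.5, 60.0, 56.7 and 51.9 CPM at day 0. At day 1 they read 10.9, 11.5, 10.1, 9.71 and 9.85 CPM, and at day 12 they read 0.802, 1.20, 0.486, 0.741 and 0.868 CPM. The 3 groups did not overlap, and the highest day 12 library lay far under the lowest day 1 library. Adrb3 was 5.44-fold lower at day 1 (log2 fold change -2.44 ± 0.069 SE, edgeR adjusted p = 2.52e-19) and 68.8-fold lower at day 12 (-6.10 ± 0.096, edgeR adjusted p = 2.13e-24). Day 12 was 12.6-fold lower than day 1 (-3.66 ± 0.10, edgeR adjusted p = 2.66e-19). The day 12 level still rested on 40 to 95 reads per library, above the 3 reads that a count of 0 allows. The library titles carry numbers from 2 series, and within the 11 libraries of the larger series the log2 fold changes were -2.42, -6.16 and -3.74. Adrb3 lies on chr8:27225776-27250616 (GRCm38, minus strand), and 18.8% of its exon bases are shared with Gm45470 on the opposite strand, whose reads cannot be told apart because the counting's use of strand is not given in the sources used here.

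Adrb1, the beta-1 receptor, was at the edge of detection and also lower at day 12. Its libraries held 18 to 46 reads at day 0 (0.246, 0.248, 0.177, 0.284 and 0.502 CPM), 10 to 21 at day 1 (0.166, 0.153, 0.228, 0.251 and 0.0979 CPM) and 2 to 13 at day 12 (0.110, 0.126, 0.0972, 0.0285 and 0.134 CPM). Every day 12 library lay under every day 0 library, while day 1 overlapped both. The day 12 level was 2.83-fold lower than day 0 (log2 fold change -1.5 ± 0.39 SE, edgeR adjusted p = 0.00135). At day 1 the difference of -0.70 (95% interval -1.46 to 0.054) did not pass the test (edgeR adjusted p = 0.0893), which at this depth leaves a change in either direction within the interval. Per kilobase of exon, Adrb3 exceeded Adrb1 by a median of 233-fold over the 5 libraries of day 0 (105 to 346), 66.8-fold at day 1 (39.5 to 103) and 7.42-fold at day 12 (5.10 to 26.5). The ratios of day 12 lay below those of both other groups.

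Adra2a, the alpha-2A receptor that opposes the beta receptors, was called only between day 12 and day 1. It read 2.65, 1.96, 2.30, 2.52 and 2.95 CPM at day 0, 2.33, 2.69, 3.35, 3.77 and 3.37 at day 1, and 1.78, 1.72, 1.75, 2.05 and 1.5 at day 12. The day 12 libraries lay under all of day 1 and overlapped day 0. Against day 0 its log2 fold change was 0.33 (95% interval 0.057 to 0.59, edgeR adjusted p = 0.0287) at day 1 and -0.50 (-0.78 to -0.22, edgeR adjusted p = 0.00192) at day 12, both within the 1.5-fold limit. The day 1 value was 0.24 within the larger number series (edgeR adjusted p = 0.155) and 0.23 with reference genes (edgeR adjusted p = 0.117). The day 12 value was -0.37 within that series (edgeR adjusted p = 0.0227) and -0.44 with reference genes. With total counts it was -0.30 (edgeR adjusted p = 0.0422). Day 12 was 1.77-fold lower than day 1 (-0.82 ± 0.14 SE, edgeR adjusted p = 9.38e-06).

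The DNA just before the start of both of these receptor genes is shown because CREB, the last step of the pathway, binds the cyclic AMP response element, the palindrome TGACGTCA, or its short form TGACG. Windows of 250 bases before to 50 after the start came from RefSeq (GRCm38.p6) and were matched for 7 of the 9 genes. No window was matched for Adrb3 or Pde3b, so neither of these genes was searched. Both strands were searched, so that CGTCA is the short form on the other strand and each palindrome also counts as a short form. The palindrome was in the window of 0 of the 7 genes, against 2.03% of all genes with a window. The short form was in those of 4 of the 7, Adrb1, Adra2a, Gnas and Prkaca, against 23.0% of all genes. The 7 genes had 12 windows, and the 27025 background genes had 32851. More windows per gene were therefore searched among the 7, and these shares are a description only. The 130 bases before the start are printed 5′ to 3′ on the plus strand with the match in capitals, 90 bases before the start in Adrb1 (chr19:56721987-56722116), 69 bases before it in Adra2a (chr19:54045129-54045258), and 120 and 6 bases before it in Prkaca (chr8:83972848-83972977).
Adrb1: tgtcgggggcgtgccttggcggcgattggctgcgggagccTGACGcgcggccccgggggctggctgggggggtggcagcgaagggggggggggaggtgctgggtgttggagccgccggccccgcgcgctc
Adra2a: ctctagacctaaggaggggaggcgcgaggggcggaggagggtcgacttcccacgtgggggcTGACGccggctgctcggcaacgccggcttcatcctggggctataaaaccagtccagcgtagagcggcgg
Prkaca: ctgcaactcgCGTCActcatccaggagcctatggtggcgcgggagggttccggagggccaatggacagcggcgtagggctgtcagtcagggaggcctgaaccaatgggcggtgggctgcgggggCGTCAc
A match describes the letters only, since binding was not measured. For the genes that share it, log2 fold changes at day 12 against day 0 were -1.5 (Adrb1), -0.50 (Adra2a), -0.059 (Gnas) and -0.20 (Prkaca). All 4 lay below 0 and differed in size. With total counts they were -1.31, -0.30, 0.13 and -0.0046 in the same order. Whether the match bears on these changes was not tested.

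**Figure D2:**
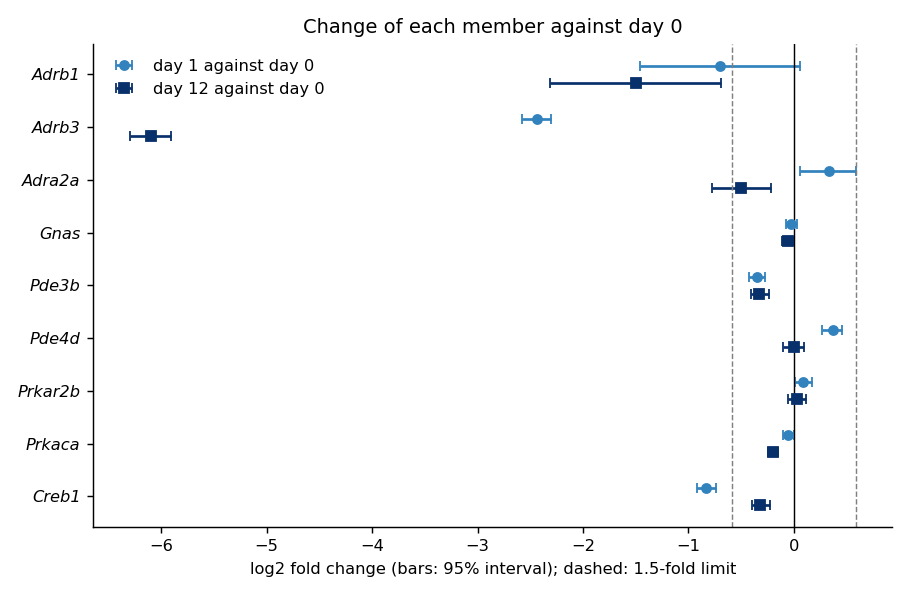
Log2 fold change of each of the 9 genes at day 1 (circles) and day 12 (squares) against day 0, with 95% intervals from the edgeR fit; dashed lines mark the 1.5-fold limit. Only Adrb3, Adrb1 and Creb1 had a value past the limit, and Gnas, Prkar2b and Prkaca lay close to 0.

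Around the adrenergic receptors, the receptor list held 31 other genes that act on adenylyl cyclase or share its ligands, of which 24 were tested. At day 1 against day 0, 9 were called lower and 1 higher. At day 12 the calls were 6 and 2, with median log2 fold changes of -0.42 and -0.33. Receptors coupled to inhibitory G proteins were among the largest decreases. Niacr1 (now Hcar2, the nicotinic acid and ketone body receptor) averaged 7.55 ± 0.549 CPM (SD, n = 5) in the day 0 libraries, 3.24 ± 0.512 in those of day 1 and 0.801 ± 0.164 in those of day 12, a decrease at both times with log2 fold changes of -1.22 and -3.22. Gpr81 (now Hcar1, the lactate receptor) fell from 14.6 ± 0.806 CPM to 8.21 ± 0.459 and 3.18 ± 0.264, with log2 fold changes of -0.83 and -2.20. Both restrain lipolysis when activated, and neither had groups that overlapped. Cnr1, the cannabinoid receptor, went the other way at day 12 (0.95, edgeR adjusted p = 6.73e-06).

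A few receptors were singled out after their values were seen. Adora1, the adenosine A1 receptor, read 34.8 ± 2.17, 41.0 ± 1.63 and 15.6 ± 0.991 CPM at days 0, 1 and 12 and was called lower at day 12 (log2 fold change -1.16, edgeR adjusted p = 1.1e-16). It shares 20.1% of its exon bases with Mybph on the opposite strand. Ptger3, a prostaglandin E receptor, was called lower at day 12 (-2.89, edgeR adjusted p = 1.03e-07) from a low level of 0.463 CPM. Gipr, the receptor for the incretin GIP, which couples to the stimulatory G protein, held 105, 95, 184, 25 and 105 reads in the day 0 libraries, 8, 11, 2, 10 and 5 at day 1, and 1, 1, 0, 1 and 1 at day 12. At day 12 it was at or under the 3 reads that a count of 0 allows, so no fold is given. Grouped by the G protein they are known to couple to, with the 3 adrenergic members included and the grouping made after the values were seen, 4 of 10 receptors of the inhibitory class were called lower and Cnr1 higher at day 12, and in equal number 4 of 15 were lower and Adora2a higher in the stimulatory class. At day 1, 3 of the inhibitory class and 6 of the stimulatory class were lower, and only Vipr2 of the stimulatory class was higher. At day 12 against day 1 the counts were 4 higher and 6 lower of 10 in the inhibitory class and 3 higher and 3 lower of 15 in the stimulatory class. These small counts are a description, to be read beside the shares of all genes called lower given above (13.4%, 16.2% and 8.53%).

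Gnas, which encodes the stimulatory G protein alpha subunit, differed by under 0.1 on the log2 scale in each comparison. Its libraries ranged from 1026 to 1073 CPM at day 0, 1007 to 1057 at day 1 and 993 to 1059 at day 12. The groups overlapped, and the log2 fold changes were -0.025 (95% interval -0.077 to 0.027) at day 1 and -0.059 (-0.11 to -0.0075) at day 12, far inside the 1.5-fold limit. With total-count scaling the day 12 value turned to 0.13, so its direction follows the scaling. Gnas lies on chr2:174284320-174346744, and 23.7% of its exon bases are shared with Nespas and Gm20721 on the opposite strand.

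Behind Gnas, 27 of 28 G protein, cyclase and desensitization genes were tested. At day 1 a single gene was called higher and 4 were called lower. By day 12 the calls were 4 and 7, with medians of 0.045 and -0.11. Adcy7, an adenylyl cyclase, read 2.07 ± 0.260 CPM at day 0 and 2.12 ± 0.372 at day 1, and 11 ± 1.14 at day 12. It was 5.28-fold higher at day 12 than at day 0 (log2 fold change 2.40 ± 0.11 SE, edgeR adjusted p = 4.12e-16), whereas Adcy4, another cyclase, was 2.46-fold lower (-1.30, edgeR adjusted p = 1.05e-11). The beta-arrestins, which uncouple activated receptors, moved in opposite directions at day 12. Arrb1 was 2.32-fold lower (-1.21, edgeR adjusted p = 1.83e-16) and Arrb2 was 1.79-fold higher (0.84, edgeR adjusted p = 3.43e-10). Grk6, a receptor kinase, was higher at day 1 (0.75) and day 12 (0.69). Gnb5, a G protein beta subunit that shares 10.6% of its exon bases with an opposite-strand gene, was lower at day 1 (-0.67) and stood at -0.27 at day 12, inside the limit. Gnaz, an inhibitory alpha subunit named after its values were seen, was called lower at day 1 (-2.98) and day 12 (-1.88) from 1.05 CPM at day 0.

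**Figure D3:**
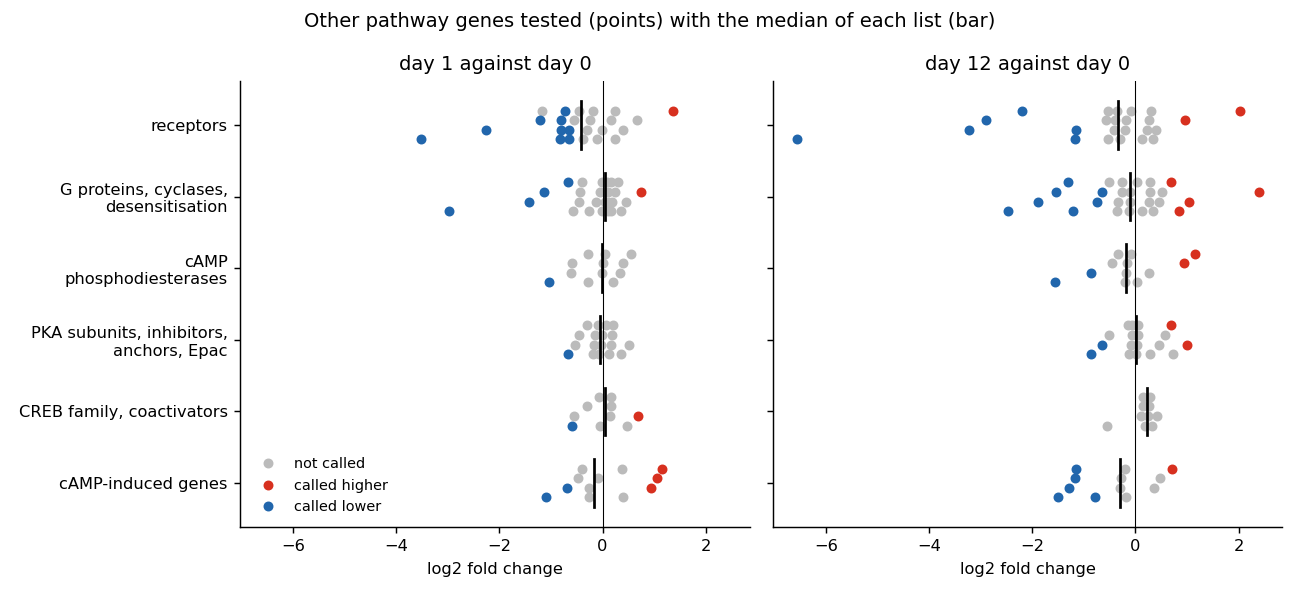
Log2 fold change against day 0 of the 103 other pathway genes tested, by list, at day 1 (left) and day 12 (right); points are genes, colored by whether they were called, and black bars are list medians. At day 12, 22 genes were called lower and 11 higher, and the list medians lay between -0.33 (receptors) and 0.22 (CREB family).

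Over all 6 lists, 103 of 114 other pathway genes were tested. At day 1 against day 0, 6 were called higher and 18 lower, at day 12 against day 0, 11 and 22, and at day 12 against day 1, 16 and 16. Their medians were -0.063, -0.10 and -0.035, and their libraries did not overlap for 58, 72 and 62 genes, beside the shares of all genes given above.

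Pde3b, the phosphodiesterase through which insulin acts, was lower at 31°C by a modest amount. Its libraries read 110, 112, 118, 126 and 117 CPM at day 0, 83.6, 93.9, 100.3, 91.8 and 87.7 at day 1, and 91.8, 92.4, 95.9, 89.2 and 95.8 at day 12. Every library at 31°C lay under every library at 37°C. On the log2 scale Pde3b differed from day 0 by -0.35 ± 0.041 SE at day 1 (edgeR adjusted p = 4.19e-08) and -0.33 ± 0.041 at day 12 (edgeR adjusted p = 1.06e-07). Both passed the test on p and both stayed within the 1.5-fold limit. With TMM, day 12 and day 1 differed by 0.024 (95% interval -0.060 to 0.11). That difference was 0.20 with total counts (edgeR adjusted p = 0.000169) and 0.18 with reference genes (edgeR adjusted p = 0.000279). The day 12 value against day 0 was -0.13 with total counts and -0.27 with reference genes.

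Pde4d, a cyclic AMP-specific phosphodiesterase, was highest at day 1. Its libraries read 17.3, 17.2, 17.6, 17.3 and 20.4 CPM at day 0, 22.8, 21.8, 24.1, 23.3 and 23.5 at day 1, and 17.6, 17.7, 18.6, 18.6 and 17.1 at day 12. All day 1 libraries exceeded all others. The day 1 difference from day 0 was 0.37 on the log2 scale (SE 0.047, edgeR adjusted p = 2e-07), and day 12 against day 1 was -0.37 (edgeR adjusted p = 2.6e-07), both under the 1.5-fold limit. Day 12 against day 0 was -0.0015 (95% interval -0.099 to 0.096).

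Among the other cyclic AMP phosphodiesterases 12 of 14 were tested, with 1 gene called lower at day 1, none higher, and 2 called each way at day 12. Pde1a, which calcium and calmodulin activate and which also breaks down cyclic GMP, rose from 45.8 ± 2.00 CPM at day 0 to 87.9 ± 2.61 at day 12 (log2 fold change 0.94, edgeR adjusted p = 7.83e-18), with a day 1 value of 67.5 ± 2.35 CPM just inside the limit (0.56). Within the larger number series that day 1 value was 0.60 and was called (edgeR adjusted p = 5.75e-11). Pde3a, the paralog of Pde3b, was higher at day 12 (1.15, edgeR adjusted p = 5.53e-09) from 2.67 CPM. Pde2a, which cyclic GMP stimulates, was lower at day 1 (-1.03) and day 12 (-1.56), but 87.9% of its exon bases are shared with Gm45837 on the same strand, so its count is uncertain.

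These shifts changed the makeup of the family. Per kilobase of exon, Pde3b made up 28.1% ± 1.05 (SD, n = 5) of the summed level of 16 cyclic AMP phosphodiesterases at day 0, 21.7% ± 0.953 at day 1 and 22.3% ± 0.448 at day 12. The differences of -6.45 and -5.81 percentage points each had p = 0.00794 in an exact two-sided permutation test, the smallest that 5 against 5 libraries allow, and an adjusted p of 0.0159 over 4 share tests. The differences were -6.30 and -6.01 points within the larger number series (exact permutation, adjusted p = 0.0571) and unchanged in size with the replicate block (exact permutation, adjusted p = 0.125), so neither passed there, where fewer arrangements are possible. Pde1a went from 14.5% at day 0 to 21% at day 1 and 27.7% at day 12, and so took the place of Pde3b as the family's most abundant transcript per kilobase. Pde4b stood at 16.6%, 16.1% and 14.6%, above Pde1a at day 0 and below it at days 1 and 12. Pde4d stood at 4.28%, 5.42% and 4.26%.

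**Figure D4:**
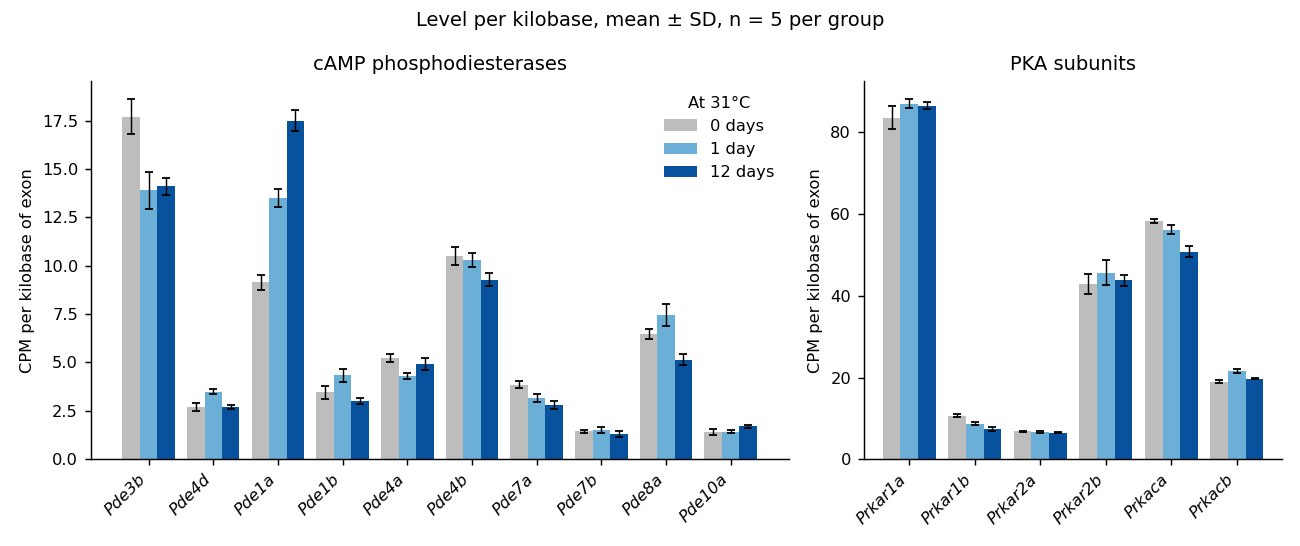
Level in CPM per kilobase of exon, mean ± SD of 5 libraries, of the cyclic AMP phosphodiesterases that reached 1 CPM per kilobase in a group (left) and of PKA subunits (right) at 0, 1 and 12 days at 31°C. Pde3b went from 17.7 to 14.1 and Pde1a from 9.14 to 17.5 between day 0 and day 12, and the PKA subunits kept their order.

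None of the PKA subunits was called. Prkar2b, the regulatory subunit typical of fat and brain, read 150, 153, 149, 169 and 164 CPM at day 0, 151, 173, 180, 164 and 167 at day 1, and 160, 157, 166, 154 and 163 at day 12. The groups overlapped, with log2 fold changes of 0.090 (95% interval 0.0057 to 0.17, edgeR adjusted p = 0.0522) at day 1 and 0.028 (-0.056 to 0.11) at day 12, and the day 1 value was -0.0076 with reference genes. Prkar2b made up 29.8% ± 0.695, 30.9% ± 1.32 and 30.4% ± 0.622 of the regulatory subunits per kilobase at days 0, 1 and 12. These shares differed by 1.03 and 0.554 percentage points from day 0, which did not pass the exact permutation test (p = 0.167 and 0.190, adjusted p = 0.19 for both). Prkar1a was the most abundant regulatory subunit, at 58.0%, 58.8% and 60.0%, and Prkar1b went from 7.41% to 5.87% and 5.15%.

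Prkaca, the main catalytic subunit, had its lowest readings at day 12 with TMM scaling, and that order depended on the scaling. It read 145, 144, 147, 143 and 146 CPM at day 0, 143, 137, 137, 141 and 142 at day 1, and 126, 132, 122, 126 and 127 at day 12. The day 12 libraries lay under all others. The log2 fold change was -0.053 (edgeR adjusted p = 0.0582) at day 1 and -0.20 ± 0.025 SE (edgeR adjusted p = 1.22e-07) at day 12, or 1.15-fold. With total counts the day 12 value was -0.0046 (edgeR adjusted p = 0.871), and with reference genes it was -0.14. Day 12 against day 1 was -0.14 with TMM but 0.028 with total counts and 0.0098 with reference genes. Its share of the catalytic subunits per kilobase was 75.5%, 72.3% and 72.0%, the rest being Prkacb.

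Among the other PKA subunits, inhibitors, anchoring proteins and Epac genes, 18 of 19 were tested, of which 1 was called lower at day 1 and 2 were called each way at day 12. Pkia, an inhibitor of the catalytic subunit, was lower at day 1 (log2 fold change -0.67) and read -0.14 at day 12, where it was not called. The anchoring protein genes split at day 12, with Akap12 higher (1.00, edgeR adjusted p = 1.72e-10) and Akap7 lower (-0.87, edgeR adjusted p = 9.91e-16). Rapgef3, which encodes Epac1, the cyclic AMP sensor outside PKA, was lower at day 12 (-0.64), a call that total counts (-0.44) and reference genes (-0.58) took back under the limit.

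Creb1 fell at day 1 and stood part of the way back at day 12. Its libraries read 34.0, 33, 35.4, 35.3 and 34.1 CPM at day 0, 17.9, 20, 21.3, 19.0 and 18.1 at day 1, and 28.1, 28.5, 28.6, 25.9 and 26.9 at day 12. The 3 groups did not overlap in any pair. Creb1 was 1.78-fold lower at day 1 than at day 0 (log2 fold change -0.83 ± 0.044 SE, edgeR adjusted p = 2.85e-14). At day 12 it was -0.32 ± 0.043 from day 0 (edgeR adjusted p = 4.42e-07) and 0.52 ± 0.045 from day 1 (edgeR adjusted p = 2.93e-10), both inside the 1.5-fold limit. The first of these was -0.12 with total counts (edgeR adjusted p = 0.0119) and -0.26 with reference genes. The second passed the limit with total counts (0.69) and with reference genes (0.67). How far back Creb1 stood at day 12 therefore depended on the scaling. Within the larger series of library numbers the values were -0.80, -0.31 and 0.49.

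All 10 other genes of the CREB family and its coactivators were tested, with 1 called each way at day 1 and 0 at day 12, where 9 of 10 lay above 0, beside 7303 of the 14293 genes tested. Crtc2, a coactivator that moves to the nucleus when cyclic AMP rises, was higher at day 1 (log2 fold change 0.68). With reference genes it was 0.58, inside the limit, and its day 12 value of 0.42 became 0.61 and was called with total counts. Crem was lower at day 1 (-0.60) and close to the limit, since it stood at -0.58 with total counts, -0.55 within the larger series, -0.57 without day 0 replicate 4 or 5 and -0.58 without day 1 replicate 3.

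Genes known to be induced by cyclic AMP were called in both directions against day 0 and in 1 direction between the 2 times at 31°C. Of 12 tested, 3 were called higher and 2 lower at day 1, against 1 and 5 by day 12, with medians of -0.17 and -0.30. At day 12 against day 1, 6 were called lower and none higher, 11 of 12 lay below 0, and the median was -0.41. Of all genes tested in that comparison, 8.53% were called lower and 10.6% higher, and 7007 of 14293 lay below 0. The median of all genes was 0.0092 with TMM, 0.18 with total counts and 0.16 with reference genes. Nr4a1, an orphan nuclear receptor, rose from 29.7 ± 7.34 CPM to 66.2 ± 8.64 at day 1 (log2 fold change 1.16, edgeR adjusted p = 3.13e-09) and read 38.0 ± 3.20 at day 12 (0.35, inside the limit). Dusp1, a phosphatase of MAP kinases, was higher at day 1 (0.94) and day 12 (0.71). Fosb, a partner of Jun in the AP-1 factor, was lower at both (-1.10 and -1.29), and Ppargc1a, the coactivator of mitochondrial and thermogenic genes, was called lower at day 12 (-1.5, edgeR adjusted p = 8.94e-09) with -0.47 at day 1. These genes also respond to signals other than cyclic AMP, and neither cyclic AMP nor PKA activity was measured in these libraries.

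The genes whose pattern over the 15 libraries was nearest to that of Adrb3 were Pnpla3, Slc7a10, Esm1, Col20a1 and Ache, among 12131 genes compared. Nearness was the root mean square difference of centered log2 CPM, which was 0.673 for Pnpla3, a patatin-like lipase, 0.823 for Slc7a10, a neutral amino acid transporter, 0.826 for Esm1, a secreted proteoglycan, 0.895 for the collagen Col20a1 and 0.934 for the acetylcholinesterase Ache. Pnpla3 read 18.9 ± 1.17, 3.33 ± 0.175 and 0.668 ± 0.179 CPM at days 0, 1 and 12, with log2 fold changes of -2.50 and -4.85 beside -2.44 and -6.10 for Adrb3. The other 4 lost less by day 1, with log2 fold changes of -0.74 to -1.41, and between -4.10 and -5.27 by day 12. Slc7a10 shares 11.2% of its exon bases with an opposite-strand gene and Pnpla3 8.0% with one on its own strand. The order is a description of these libraries, which share their depth and scaling.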

How the data were processed

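The authors aligned reads to UCSC mm10 with TopHat (2.0.13) and Bowtie2 (2.2.1) and deposited whole-number HTSeq counts per gene for 15 libraries. Deposited columns of the authors' DESeq2 comparisons and rlog values were not used. Genes passing edgeR's filterByExpr (minimum count 10) were fitted with edgeR 4.0.16 (R 4.3.3) quasi-likelihood tests over all libraries with TMM scaling. Calls needed a Benjamini-Hochberg adjusted p under 0.05 and over 1.5-fold. CPM per kilobase used GENCODE M21 exon lengths (GRCm38). Shares used exact two-sided permutation tests. Alternatives were size factors, total counts, reference genes (Hprt, Tbp, Ppia), DESeq2 1.42.0, other filters, a replicate block, library number series and leaving out each library.

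The 9 genes and the lists were chosen with earlier results of these data known. Named pathway genes were, per list and comparison with day 0, at most 2 called increases and 2 called decreases of largest size with a mean of at least 1 CPM, plus the 5 genes nearest Adrb3. Some single genes are not reported here. The fit was tested on simulated data. Correlations of same-numbered libraries ran from -0.0255 to 0.0436 over 15 pairs. In 8 of these pairs the first library correlated best with its own number. Totals per library ran from 64648178 to 133270973 counts.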

Additional observations from a re-analysis of the deposited data

Results flagged for a closer look

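The highest day 0 library of Pde4d, at 20.4 CPM, stood apart from the other 4 (17.2 to 17.6 CPM), a gap of more than 0.71 of the group's range. It was the only such library in 27 groups checked, and chance gives about 1 in 20. Without it the day 12 difference of Pde4d from day 0 was 0.048 on the log2 scale, against -0.0015 with it.

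The changes of Adrb3 and Adra2a from day 0 differed between day 1 and day 12 by a test of the difference itself, which shares the day 0 libraries and is the contrast of day 12 with day 1. The difference was -3.66 on the log2 scale for Adrb3 and -0.82 for Adra2a, with lower levels at day 12 in 5 of 5 libraries for both.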

How the results depend on the processing

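The number of the 9 genes called was 2 in each comparison under every alternative except 5, 7 and 5 with no fold limit (day 1 against 0, 12 against 0, 12 against 1), 1 and 1 in the last pair with a mean of at least 10 CPM, which leaves 7 of the 9, and 3 at day 12 against day 1 with total counts or reference genes. Pathway genes called, 24, 33 and 32, became 73, 84 and 78 with no fold limit and 9, 13 and 9 with at least 10 CPM, and ranged over 22 to 26, 29 to 35 and 30 to 32 leaving out each library. With the replicate block the counts were 2, 2 and 2 of the 9 genes and 24, 31 and 32 pathway genes; the same-number correlations were all under 0.1, so the numbers were not taken to pair the libraries, although in 8 of 15 pairs the first library correlated best with its own number. The Pde3b share differed by -6.30 and -6.01 points within the larger number series (adjusted p = 0.0571, exact permutation, smallest raw p 0.0571 and 0.0286) and by -6.45 and -5.81 with the replicate block (adjusted p = 0.125, exact permutation, smallest raw p 0.0625), and ranged from -6.82 to -6.12 and -6.18 to -5.47 leaving out each library. The Prkar2b share at day 1 ranged from 0.65 to 1.53, and passed the exact permutation test (adjusted p = 0.0423) without day 1 replicate 1.

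Of the single-gene values, 33 turned in direction, none to over 0.19 in size, and 3188 kept direction and side of the threshold. With total counts, at day 12 against day 0, Gnas was 0.13, Pde4d 0.19, Prkar2a 0.13 and Pkia 0.049; at day 12 against day 1, Gnas was 0.14, Prkar2b 0.11, Prkaca 0.028, Grk6 0.11, Prkacb 0.047, Prkar1a 0.16 and Prkar2a 0.14. With reference genes, at day 12 against day 1, Gnas was 0.12, Prkar2b 0.093, Prkaca 0.0098, Grk6 0.092, Prkacb 0.029, Prkar1a 0.14 and Prkar2a 0.12; at day 1, Prkar2b was -0.0076, Adcy7 -0.051 and Prkar1a -0.039; and at day 12 against day 0 Pde4d was 0.055. Pde4d there was 0.0026 with no filter, 0.065 within the larger series and -0.016 to 0.048 leaving out each library. Within the larger series Pde3b at day 12 against day 1 was -0.0048 (-0.0061 to 0.056 leaving out each library) and Adcy7 at day 1 was -0.015 (-0.060 to 0.12). Prkar1a at day 12 against day 1 was 0.017 with at least 10 CPM. Scaling moved the median of all genes as given above; other causes were not tested. Depth limits Adrb1, Gipr at day 12 and Ptger3. It also limits Gnaz at day 1 (4 to 17 reads). At day 12 it limits Slc7a10 (2 to 14 reads), Col20a1 (9 to 23) and Ache (5 to 16) as well.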
